A study of Rattus norvegicus with 28 samples.

Results

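The genes described here are 5 astrocyte markers, 2 of which also encode the main glutamate uptake transporters of the brain: Gfap, Aqp4, Slc1a2, Slc1a3 and S100b. They were selected by their Ensembl identifiers (ENSRNOG00000002919, ENSRNOG00000016043, ENSRNOG00000005479, ENSRNOG00000016163 and ENSRNOG00000001295), and all 5 were found among the 32623 gene rows of the count table. Expression was measured by total RNA sequencing of 28 whole rat brains, to ask whether brain RNA depends jointly on genetic background and on sex or estrous stage. The strains were BN-Lx/Cub, an inbred Brown Norway line, and SHR/OlaIpcv, the inbred spontaneously hypertensive rat, called BN-Lx and SHR here. Each strain had 4 females at pre-estrus, 4 at estrus and 4 at post-estrus, and 2 males. No agent or transgene is given in the labels for any group, the rats' age is not stated, and the extraction protocol, which speaks of alcohol-naive male rats, is the same for females and males. Whole brains were taken, so each stage holds different animals. The sample descriptions also carry a number of unstated meaning that libraries of several groups share: all 4 SHR pre-estrus libraries, 1 SHR estrus and 1 SHR post-estrus library have 201066, both SHR males and 1 SHR estrus library 199890, and both BN-Lx males, 2 BN-Lx post-estrus libraries and 1 BN-Lx pre-estrus library 200537. Stage and sex are thus partly tied to this number. No number occurs in both strains, so strain is wholly tied to it. Its part in a strain difference cannot be told apart from strain.

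Astrocytes take up the glutamate that neurons release, buffer potassium and water at the blood vessels, and respond to injury by changing their cytoskeleton. Gfap encodes glial fibrillary acidic protein, the intermediate filament that rises in reactive astrocytes. Aqp4 encodes the water channel of the astrocyte endfeet around vessels. Slc1a2 (GLT-1) and Slc1a3 (GLAST) encode the sodium-dependent transporters that clear most synaptic glutamate, GLAST being most abundant in the Bergmann glia of the cerebellum. S100b encodes a calcium-binding protein made mainly by astrocytes and also by some oligodendrocyte lineage cells. A whole brain contains all cell types, and in such bulk RNA fewer cells of a type and less RNA per cell cannot be told apart.

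Promoter windows are shown for S100b and Aqp4, the genes that passed the test between strains in females. Each window runs from 250 bases before to 50 bases after a transcript start in RefSeq on the GRCr8 assembly and is printed 5′ to 3′ along the gene, with each match to CCAAT on either strand in capitals (on the opposite strand it reads ATTGG). The S100b window is chr20:12381032-12381331 on the minus strand. The Aqp4 window, the first of 2 listed, is chr18:6798793-6799092 on the minus strand.
S100b: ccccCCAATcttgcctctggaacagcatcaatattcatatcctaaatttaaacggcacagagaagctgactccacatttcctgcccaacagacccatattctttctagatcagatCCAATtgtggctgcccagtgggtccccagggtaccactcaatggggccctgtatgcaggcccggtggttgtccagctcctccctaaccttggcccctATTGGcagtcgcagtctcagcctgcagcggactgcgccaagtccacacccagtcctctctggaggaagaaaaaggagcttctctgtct
Aqp4: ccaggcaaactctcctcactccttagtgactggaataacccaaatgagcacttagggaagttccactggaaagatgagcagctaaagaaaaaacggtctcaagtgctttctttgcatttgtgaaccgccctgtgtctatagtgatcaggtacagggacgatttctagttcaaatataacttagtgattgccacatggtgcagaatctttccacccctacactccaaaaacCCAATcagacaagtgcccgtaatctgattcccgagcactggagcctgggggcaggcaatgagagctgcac
The S100b window held 3 matches, at positions 5, 116 and 213 from its 5′ end, and the Aqp4 window held 1, at position 231. CCAAT was present on either strand in 37.5% of all 33469 promoter windows of this length in the rat, so a match is common. Neither window held TATAAA, which was found in 14.2% of windows. No binding was measured, and the matches are a description of the letters alone.

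The files give levels in TPM, a gene's share of all transcripts after correction for gene length, which can be compared between genes. S100b was the most abundant, at 311 ± 41.0 TPM (SD, n = 28 libraries), rank 115 among all gene rows. Slc1a2 stood at 95.05 ± 19.5 TPM, Gfap at 73.3 ± 16.1 TPM, Slc1a3 at 71.9 ± 14.6 TPM and Aqp4 at 39.0 ± 9.75 TPM, rank 802. Within a library S100b exceeded Slc1a2 in 28 of 28 libraries, and Slc1a3 exceeded Aqp4 in 28 of 28. Slc1a2 exceeded Gfap in 22 of 28. Gfap and Slc1a3 did not differ beyond their spread: Gfap was higher in 15 of 28 libraries, with a mean log2 ratio of 0.03 ± 0.38 (SD). The row named Slc1a2 has a single listed transcript of 882 bases, short for this gene, so its TPM and its place in the order depend on that model.

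Differences between groups were tested on counts, and levels below are CPM, counts relative to library size, scaled by TMM, a method that sets the bulk of the genes equal between libraries. CPM are not corrected for gene length and are compared only within a gene. All 5 genes passed the filter on low counts, with at least 5133 counts in every library. Between libraries of a group Gfap varied most, with a biological coefficient of variation of 21.3%, higher than that of 80.3% of the 2031 genes averaging 64 CPM or more. Aqp4 varied by 16.8%, Slc1a2 by 14.1%, Slc1a3 by 13.1% and S100b by 12.3%, against a median of 14.4% for those genes.

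**Figure D1:**
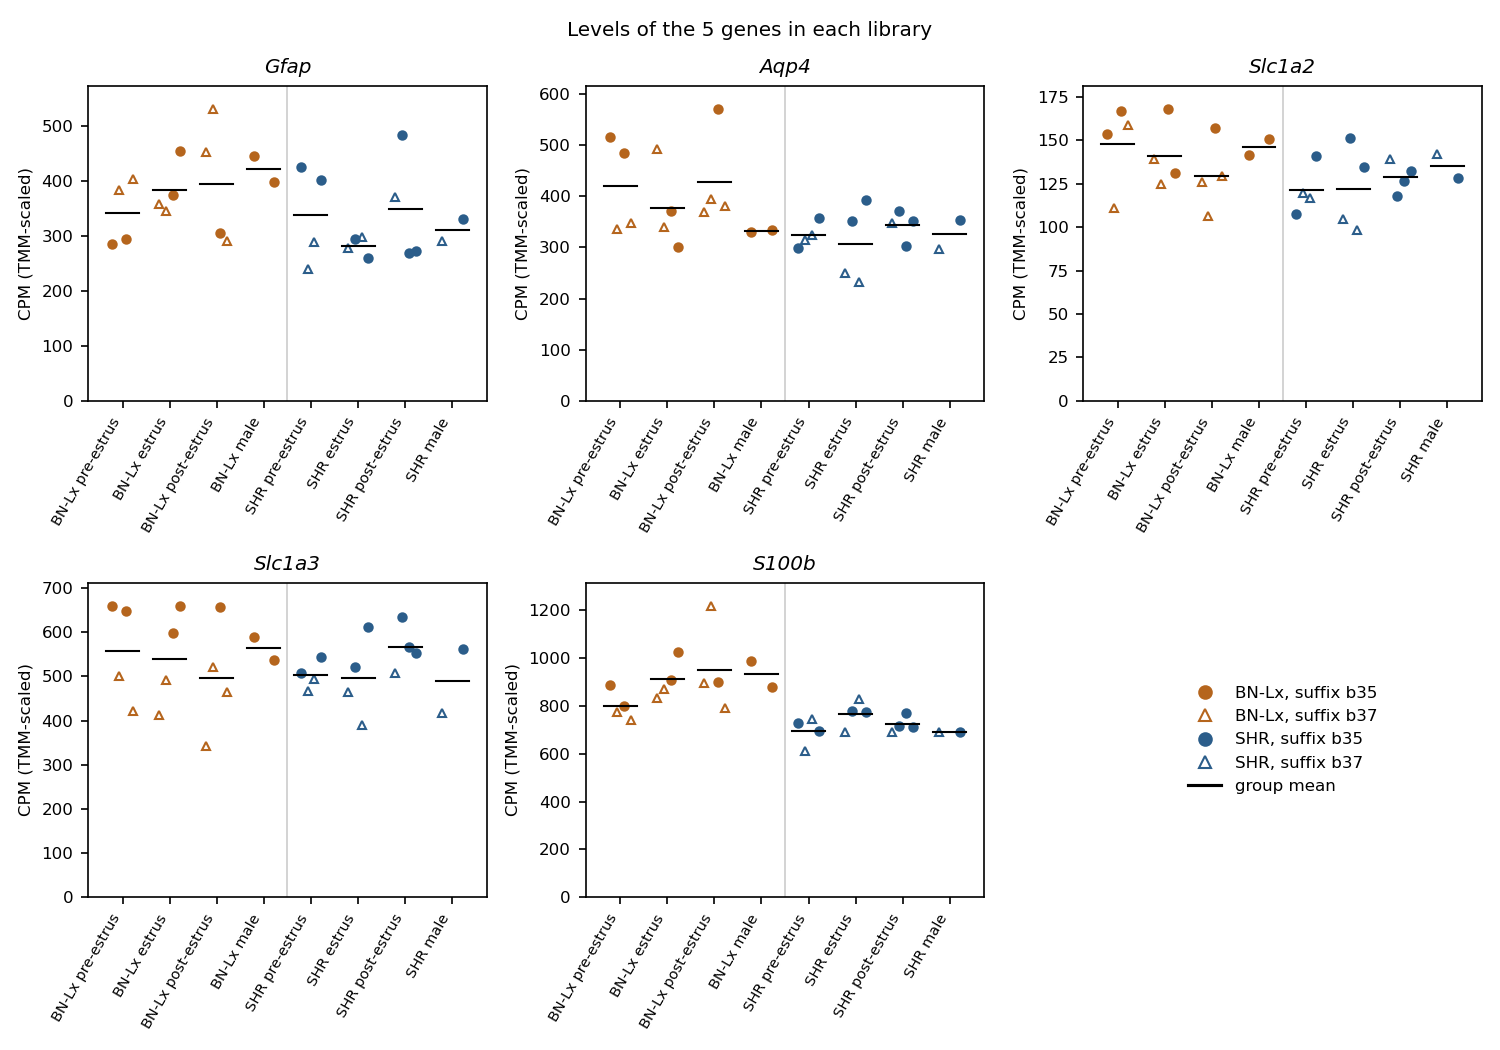
Level of each gene (CPM, TMM-scaled, y axes from 0) in every library by strain and sex or stage, with the group mean as a line; filled circles and open triangles separate the suffixes b35 and b37 of the sample descriptions. S100b levels are mostly higher in BN-Lx than in SHR, 4 BN-Lx females stand at 485 CPM or more for Aqp4, and Slc1a3 is higher in b35 than in b37 libraries.

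In females, S100b and Aqp4 were lower in SHR than in BN-Lx on the TMM scale, and Gfap, Slc1a2 and Slc1a3 did not pass the test. For S100b, the 12 BN-Lx females ran from 743 to 1219 CPM with a median of 881, and the 12 SHR females from 612 to 831 with a median of 723. The groups overlapped between 743 and 831 CPM, with 7 of the 12 SHR libraries below every BN-Lx library. SHR females averaged 729 ± 56.2 CPM and BN-Lx females 888 ± 129 CPM (SD, n = 12 each). The log2 fold change was -0.29 ± 0.062 (SE; 95% interval -0.42 to -0.16) with an adjusted p of 0.00244 by edgeR's quasi-likelihood test. Of the 5 genes, this calcium-binding protein gene had the least spread within groups and the smallest adjusted p.

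The water channel gene Aqp4 ran from 301 to 570 CPM in BN-Lx females, with a median of 376, and from 232 to 393 CPM in SHR females, with a median of 336. The groups overlapped widely, and the BN-Lx range was extended upward by 4 libraries: post-estrus replicate 5 at 570 CPM, pre-estrus replicate 3 at 517, estrus replicate 2 at 493 and pre-estrus replicate 7a at 485. SHR females averaged 325 ± 48.0 CPM and BN-Lx females 409 ± 85.3 CPM. The log2 fold change was -0.37 ± 0.093 (SE; 95% interval -0.56 to -0.18), adjusted p = 0.0100. Those 4 libraries were also among the 5 of all 28 whose profiles over all genes correlated least with the others. Without these 5 libraries (the other was SHR post-estrus replicate 13), the Aqp4 difference was -0.20 with an adjusted p of 0.156, and that of S100b was -0.30 with an adjusted p of 0.0186.

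The intermediate filament gene Gfap ran from 286 to 531 CPM in BN-Lx females (median 367) and from 241 to 485 CPM in SHR females (median 292). The groups overlapped over most of their range. Its log2 fold change was -0.21 ± 0.12 (SE; 95% interval -0.47 to 0.04), adjusted p = 0.365. Without the 5 least similar libraries Gfap was lower in SHR by a log2 fold change of -0.44, adjusted p = 0.0205, so that Gfap and Aqp4 changed places on either side of the threshold. In 3 of the 4 BN-Lx libraries with the most Aqp4, Gfap stood at 286, 294 and 305 CPM, near the bottom of the BN-Lx range.

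Of the glutamate transporters, Slc1a2 ran from 106 to 168 CPM in BN-Lx and from 98.4 to 151 CPM in SHR females, with a log2 fold change of -0.19 ± 0.076 (SE; 95% interval -0.35 to -0.03), unadjusted p = 0.0196 and adjusted p = 0.134. Slc1a3 ran from 342 to 660 CPM in BN-Lx and from 390 to 635 CPM in SHR females, with a log2 fold change of -0.07 ± 0.068 (SE; 95% interval -0.22 to 0.07), adjusted p = 0.620. The SHR range of Slc1a3 lay within the BN-Lx range.

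Of the 5 genes, 2 were called between strains in females, where 9.51% of all 18134 genes tested were called and 4.93% were called lower in SHR. Among genes averaging 64 CPM or more, 6.06% were called. All 5 estimates were below 0, against 45.9% of all genes, and the median of the 5 was -0.21 against 0.02 for all genes. In no gene of the 5 were the 12 SHR levels separate from the 12 BN-Lx levels, a separation seen in 1.56% of genes.

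These strain differences kept their size under scalings that, like TMM, centre on most genes, and shrank under scalings to a library total. With DESeq2's size factors in edgeR (RLE) S100b was -0.30 (adjusted p = 0.00181) and Aqp4 -0.38 (adjusted p = 0.00877), with upper quartile factors they were -0.32 (adjusted p = 0.00221) and -0.39 (adjusted p = 0.00503), and DESeq2 itself called both. A few very abundant RNAs took a smaller share of the counts in SHR: the 8 most abundant genes held 41.4 ± 3.07% of gene counts in the 12 females of SHR, against 46.5 ± 2.48% for the 12 of BN-Lx (SD). Scaled to total gene counts, the median difference of all genes moved from 0.02 to 0.15, S100b was -0.16 (adjusted p = 0.114) and Aqp4 -0.23 (adjusted p = 0.0429). On the deposited TPM scale S100b was 309 ± 43.4 TPM in SHR and 317 ± 46.2 TPM in BN-Lx females, and Aqp4 38.1 ± 7.79 and 41.4 ± 12.3 TPM. There the median difference of all genes was 0.18 (log2, after adding 1 TPM), that of S100b 0.00 and that of Aqp4 -0.08, with adjusted p = 0.997 and 0.702 by limma, and Gfap, Slc1a2 and Slc1a3 were above 0. Relative to the median of all genes, S100b was -0.31 on the TMM scale, -0.31 on the total count scale and -0.18 on the TPM scale, and Aqp4 was -0.39, -0.38 and -0.26. On the TPM scale, a share of all transcripts, neither gene passed the test.

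**Figure D2:**
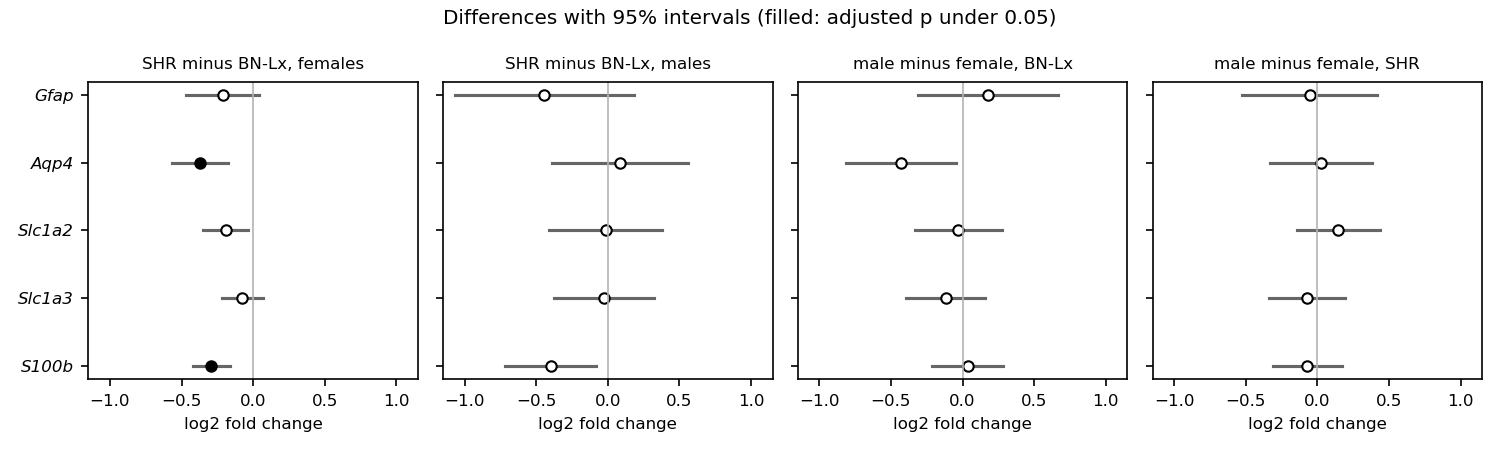
Log2 fold change (x axis) of each gene with its 95% interval between strains in females and males and between sexes in each strain, from counts scaled by TMM; filled points have an adjusted p under 0.05. S100b and Aqp4 in females are the filled points, and the intervals in males are the wider ones.

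In males, with 2 libraries per strain, 0 of the 5 genes were called, where 0.8% of all genes were. Both BN-Lx males had the suffix b35, while SHR male 1 had b37 and SHR male 2 had b35. Strain in males and sex in BN-Lx are thus partly tied to the suffix, for which the fit holds a term. S100b stood at 689 and 693 CPM in SHR and at 879 and 988 CPM in BN-Lx males. Both SHR males were below both BN-Lx males, a separation that the female groups did not show, with a log2 fold change of -0.40 ± 0.15 (SE; 95% interval -0.72 to -0.08), unadjusted p = 0.0164 and adjusted p = 0.373. Gfap stood at 290 and 330 CPM in SHR and at 399 and 447 CPM in BN-Lx males, also without overlap (-0.44 ± 0.30, adjusted p = 0.598). Both SHR levels fell below both BN-Lx levels in 28.9% of all genes, so this separation is common. Aqp4 stood at 297 and 354 CPM in SHR and at 331 and 335 CPM in BN-Lx males, with means of 326 and 333 CPM. Its log2 fold change, which is adjusted for the suffix, was 0.08 (95% interval -0.39 to 0.56). The estimate thus has the opposite sign to the difference of the means. The interval for Aqp4 in males includes the female estimate.

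Between the sexes, 0 of the 5 genes were called in either strain, where 0.0331% of genes were called in each. Aqp4 in BN-Lx was the nearest, at 331 and 335 CPM in males against 409 ± 85.3 CPM in females. The log2 fold change was -0.43 ± 0.18 (SE; 95% interval -0.81 to -0.05), unadjusted p = 0.0288 and adjusted p = 0.843. Both male levels lay inside the female range of 301 to 570 CPM. In SHR the same difference was 0.02 (95% interval -0.33 to 0.38), and the difference between the strains' sex effects was 0.46 (95% interval -0.06 to 0.97), adjusted p = 0.784. For the other 4 genes the sex differences ran from -0.12 to 0.18 in BN-Lx and from -0.07 to 0.15 in SHR. By edgeR 0 genes of the whole table passed for the difference of sex effects between strains, with 632 at an unadjusted p under 0.05, and DESeq2 called 3. Without SHR male replicate 2 edgeR called 6 genes there and 23, in place of 6, for sex in SHR, and with b35 libraries alone 3 there and 74, in place of 6, for sex in BN-Lx. None of the 5 genes was among the calls under these 2 settings.

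Across the stages of the cycle, 0 of the 5 genes were called in either strain, and 0 of all 18134 genes were, by edgeR. At an unadjusted p under 0.05 BN-Lx had 589 genes (3.25%) and SHR 114 (0.629%), while DESeq2 called 3 and 5 genes. S100b came nearest: in BN-Lx the 4 pre-estrus libraries ran from 743 to 890 CPM, the 4 estrus libraries from 835 to 1028 and the 4 post-estrus libraries from 791 to 1219. The stages overlapped, and the post-estrus range was extended by replicate 4 at 1219 CPM. The test over the 3 stages gave an unadjusted p of 0.0583 and an adjusted p of 0.977, and the post-estrus level exceeded the pre-estrus level by 0.27 on the log2 scale (95% interval 0.04 to 0.49; adjusted p = 0.969). In SHR the same difference was 0.04 (95% interval -0.18 to 0.26).

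For Aqp4, the estrus minus pre-estrus difference was -0.13 (95% interval -0.46 to 0.20) in BN-Lx and -0.10 (-0.43 to 0.23) in SHR. For Gfap it was 0.17 (-0.27 to 0.60) and -0.26 (-0.69 to 0.17). Slc1a2 and Slc1a3 had pairwise stage differences between -0.14 and 0.10 on the log2 scale in both strains. The 95% intervals of the transporters reached from -0.42 to 0.35, so stage differences up to those sizes could not be told from 0 at this number of libraries. For stage effects that differ between strains 0 of the 5 genes and 0 of all genes passed by edgeR, with 268 genes at an unadjusted p under 0.05 (1.48%) and 1 by DESeq2, and the smallest unadjusted p among the 5 was 0.307 for S100b.

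Slc1a3 differed by the suffix b35 or b37 that ends the sample descriptions and whose meaning the labels do not give. In BN-Lx females Slc1a3 was 644 ± 26.6 CPM in the 5 libraries with b35 and 451 ± 62.6 CPM in the 7 with b37. The 2 sets did not overlap, at 597 to 660 and 342 to 521 CPM. In SHR females it was 563 ± 46.3 CPM in 7 b35 libraries and 464 ± 45.2 CPM in 5 b37 libraries. Their ranges of 508 to 635 and 390 to 507 CPM did not overlap but nearly met, at 508.2 and 507.4 CPM. How many of all genes separate in this way by suffix was not counted. In the fit over all 28 libraries Slc1a3 was lower in b37 by a log2 fold change of -0.38 ± 0.067 (SE; 23.4% lower), adjusted p = 0.0208, where 0.0551% of all genes, 10 of 18134, were called. Aqp4 (-0.24, adjusted p = 0.435), Slc1a2 (-0.18, adjusted p = 0.518), S100b (-0.07, adjusted p = 0.859) and Gfap (-0.01, adjusted p = 0.996) did not pass. All tests above hold a term for the suffix.

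Within the suffixes, S100b was lower in SHR females by a log2 fold change of -0.28 in b35 libraries alone and -0.27 in b37 libraries alone. Aqp4 was lower by -0.40 in b35 and -0.34 in b37. Both genes were below 0 in each set, and the b37 values did not pass. In b35, replicate 5 alone stood for BN-Lx post-estrus, and in b37 replicate 12 alone for SHR post-estrus. For Aqp4, that replicate 5 stood at 570 CPM and BN-Lx pre-estrus replicates 3 and 7a, also b35, at 517 and 485 CPM. All were among the 5 least similar libraries. BN-Lx estrus replicates 8 and 9 stood at 372 and 301 CPM, and SHR females with b35 at 299 to 393 CPM. Gfap was 0.03 in b35 and -0.35 in b37, and Slc1a3 was -0.21 in b35 and 0.06 in b37, none of which passed.

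The level of Aqp4 went with the makeup of the library within BN-Lx. Over the 14 BN-Lx libraries Aqp4 rose with the share of the 8 most abundant genes (Pearson's r = 0.77, adjusted p = 0.0117 by a permutation test over 20 relations; Spearman's rho = 0.74, adjusted p = 0.0658; r = 0.66 without the 2 libraries farthest from the median share). In SHR the relation did not pass (r = -0.01, rho = -0.002, adjusted p = 0.974 and 1.0 by permutation, n = 14). That r rests on single libraries too, as it was 0.48 without the 2 farthest. Gfap went the other way, with r = -0.76 in SHR (adjusted p = 0.0117; rho = -0.59, adjusted p = 0.186) and r = -0.46 in BN-Lx (adjusted p = 0.353; rho = -0.40, adjusted p = 0.362), by the same permutation test. The SHR value rests on single libraries, as r was -0.45 without the 2 farthest. Within the suffixes, by an exact permutation test adjusted over 12 relations, Aqp4 and the share in BN-Lx had r = 0.87 in b35 (adjusted p = 0.0918) and 0.54 in b37 (adjusted p = 0.236; n = 7 each), neither passing. Gfap and the share in SHR had r = -0.90 in b35 (adjusted p = 0.0428 by the exact permutation test, n = 8) and -0.12 in b37 (adjusted p = 0.934, n = 6). By Spearman's rho the b35 relation did not pass (-0.76, adjusted p = 0.144 by the exact permutation test). With that share as a covariate the strain difference in females was -0.63 for Gfap (adjusted p = 0.00253), -0.19 for Aqp4 (adjusted p = 0.283) and -0.31 for S100b (adjusted p = 0.0172). The share differs between the strains, so its part in the strain differences cannot be told apart from strain.

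**Figure D3:**
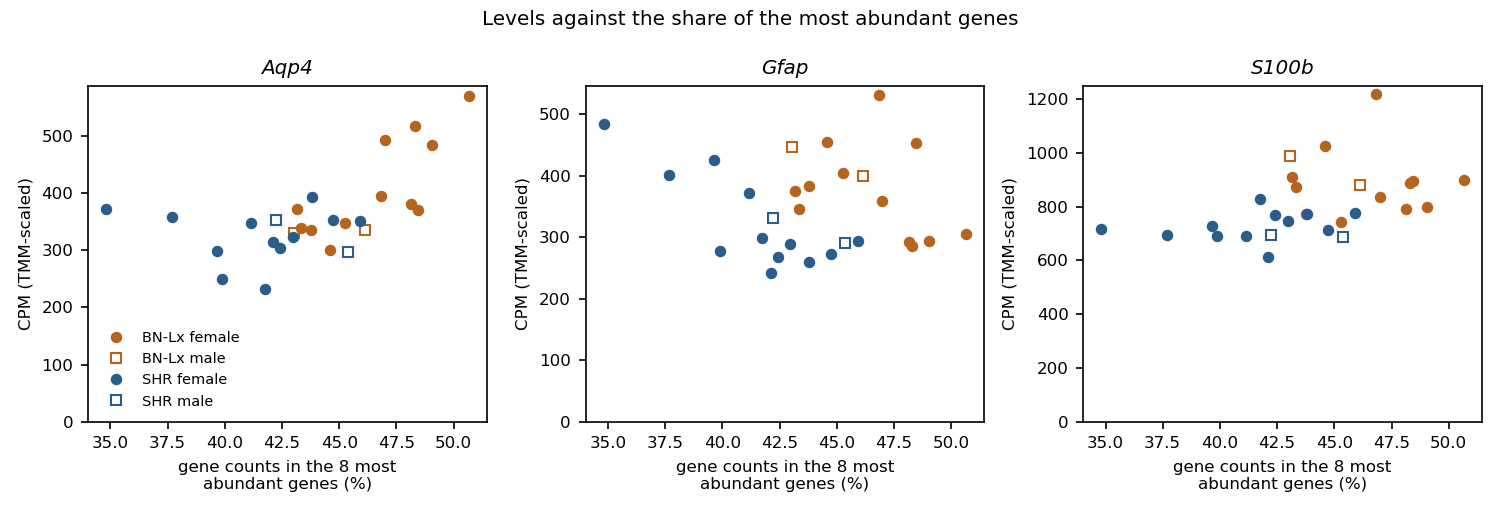
Level (CPM, TMM-scaled, y axis from 0) of Aqp4, Gfap and S100b in each library against the percentage of gene counts in the 8 most abundant genes; filled circles are females and open squares males. Aqp4 climbs with the share in BN-Lx, Gfap falls with it in SHR, and most SHR points for S100b lie below the BN-Lx points.

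Few relations between pairs of the 5 genes passed the test at this number of libraries. Of 20 relations between pairs, tested in the 14 libraries of each strain, 2 passed after adjustment by a permutation test, both in SHR. Aqp4 and Slc1a3, the endfoot water channel and the transporter GLAST, had r = 0.81 (adjusted p = 0.009) and rho = 0.82 (adjusted p = 0.0148) by permutation, with r = 0.73 without the 2 libraries farthest from the median of Aqp4. Aqp4 and Slc1a2 had r = 0.71 (adjusted p = 0.0379) and rho = 0.48 (adjusted p = 0.387) by permutation, and r = 0.34 without the 2 farthest, so that relation rests on those libraries. In BN-Lx, Gfap and Aqp4 had r = -0.62 and rho = -0.60 (adjusted p = 0.0915 and 0.254 by permutation), and Gfap and S100b had r = 0.62 and rho = 0.48 (adjusted p = 0.0915 and 0.387 by permutation). Neither passed. Within the suffixes, by the exact permutation test adjusted over 12 relations, Aqp4 and Slc1a3 in SHR had r = 0.62 in b35 (adjusted p = 0.159, n = 8) and 0.75 in b37 (adjusted p = 0.197, n = 6), and Aqp4 and Slc1a2 r = 0.49 (adjusted p = 0.266) and 0.80 (adjusted p = 0.147). Neither SHR pair passed within a suffix. In BN-Lx, Gfap and Aqp4 had r = -0.95 in b35 (adjusted p = 0.0428 by the exact permutation test) and -0.01 in b37 (adjusted p = 0.996, n = 7 each). By Spearman's rho the b35 relation did not pass (-0.89, adjusted p = 0.1 by the exact permutation test). Gfap and S100b had r = 0.78 (adjusted p = 0.0918) and 0.70 (adjusted p = 0.178), by the same exact test. Whether these relations differ between the strains was not tested. Both members of a pair come from the same library and share its scaling. Over all 28 libraries, where strain differences enter r, Aqp4 and Slc1a2 had r = 0.60 (unadjusted p = 0.00057 by permutation). Gfap and S100b had r = 0.52 (0.00411) and Aqp4 and Slc1a3 r = 0.40 (0.0334), by the same test. Without the 2 farthest libraries these were 0.48, 0.48 and 0.21. The other pairs had r from -0.08 to 0.37.

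Ratios of TPM between the genes within a library do not depend on how libraries are scaled. Of the 10 TPM ratios, 0 differed between strains in females after adjustment. This test held no term for the suffix. The b35 and b37 libraries numbered 5 and 7 in BN-Lx females and 7 and 5 in SHR females. Both ratios given next hold Slc1a3, which was lower in b37. The ratio of Aqp4 to Slc1a3 was nearest, with a log2 ratio of TPM of -1.03 ± 0.12 in SHR and -0.72 ± 0.36 in BN-Lx (SD, n = 12 each; difference -0.31, p = 0.0071, adjusted p = 0.071 by a permutation test). The log2 ratio of TPM of Slc1a3 to S100b was -2.002 ± 0.22 in SHR and -2.27 ± 0.32 in BN-Lx (difference 0.26, p = 0.0293, adjusted p = 0.146 by a permutation test). The Aqp4 to Slc1a3 difference was -0.14 in b35 and -0.43 in b37 libraries, and that of Slc1a3 to S100b 0.08 and 0.33.

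The files also give, for each library, a gene's mean transcript length weighted by the estimated abundance of its transcripts, which moves when the mix of transcripts moves. Gfap has 3 listed transcripts, Aqp4 4 and Slc1a3 4, while Slc1a2 and S100b have 1 and could not vary. For Gfap the 12 BN-Lx females ran from 2501 to 2700 bases with a median of 2656, and the 12 SHR females from 2510 to 2654 bases with a median of 2588. All BN-Lx females except post-estrus replicate 5, at 2501 bases, stood at 2621 bases or more, and 9 SHR females stood below that. The mean was 2585 ± 48.6 bases in SHR and 2649 ± 50.9 bases in BN-Lx (SD, n = 12 each), a difference of -2.40%, unadjusted p = 0.00799 and adjusted p = 0.148 by limma over 4789 genes, of which 3.13% were called. Without BN-Lx post-estrus replicate 5 the adjusted p was 0.00548. The SHR males stood at 2524 and 2509 bases and the BN-Lx males at 2666 and 2662 bases, in the same direction (adjusted p = 0.471). In b35 libraries alone the log2 difference in females was -0.005, and in b37 libraries alone it was -0.05, neither of which passed. In b35, BN-Lx post-estrus replicate 5 alone stood for its stage, as SHR post-estrus replicate 12 did in b37. The other BN-Lx females with b35 stood at 2656 to 2688 bases, and the SHR females with b35 at 2544 to 2654 bases.

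**Figure D4:**
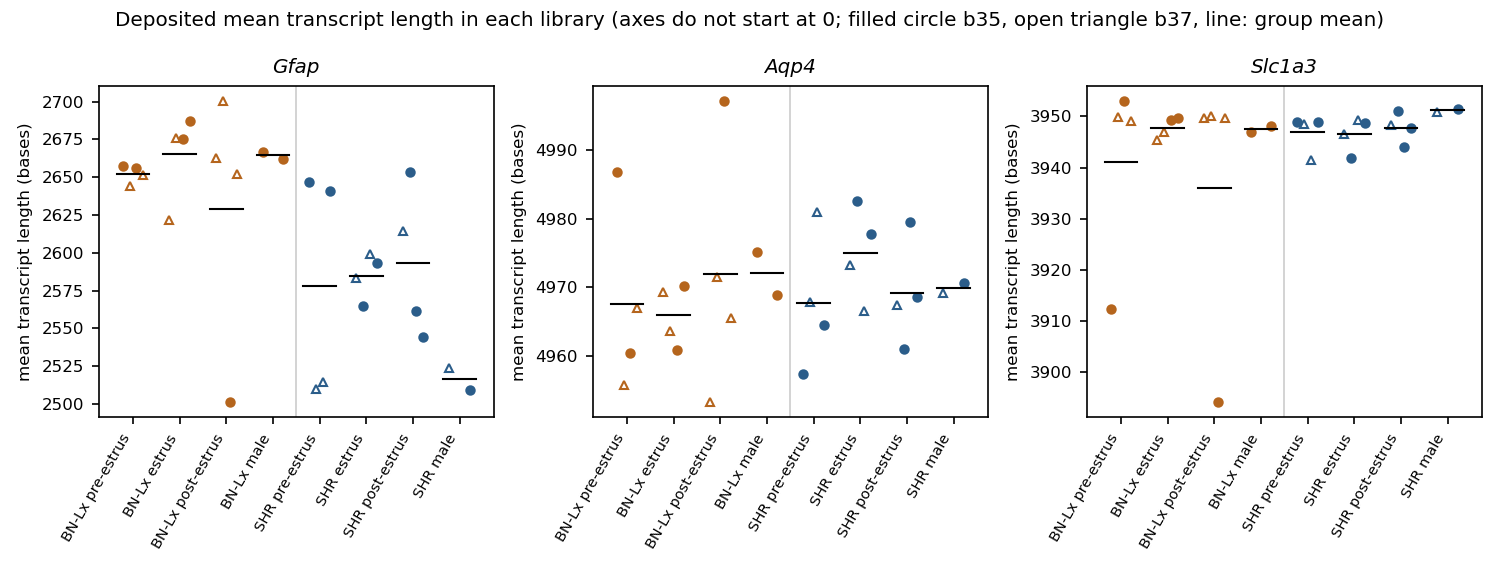
Deposited mean transcript length in bases of Gfap, Aqp4 and Slc1a3 in every library by strain and sex or stage, with the group mean as a line; the y axes do not start at 0. Gfap lengths are mostly shorter in SHR, with BN-Lx post-estrus replicate 5 as the low BN-Lx point.

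For Aqp4 the mean transcript length was 4971 ± 8.15 bases in SHR and 4968 ± 12.5 bases in BN-Lx females (adjusted p = 0.988 by limma), and for Slc1a3 3947 ± 3.05 and 3942 ± 18.4 bases (adjusted p = 0.7003). Neither passed. Which Gfap transcripts make up the difference was not analysed here. Among SHR females the longest Gfap lengths, 2654, 2647 and 2641 bases, were in post-estrus replicate 13 and pre-estrus replicates 10 and 8. These libraries also had the highest Gfap levels, at 485, 425 and 402 CPM. Their shares of the 8 most abundant genes were the lowest, at 34.8%, 39.6% and 37.7%. Whether the length follows the level or the share was not tested.

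**Figure D5:**
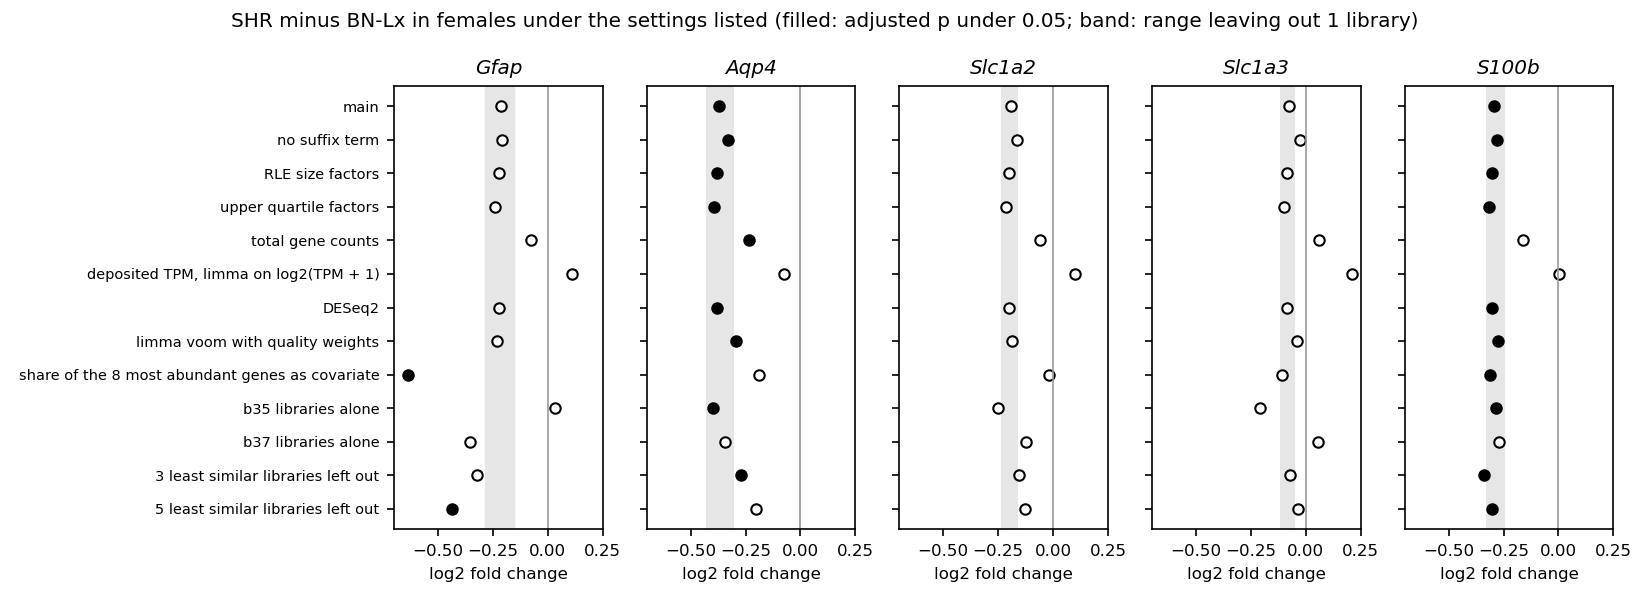
Log2 fold change (x axis) between SHR and BN-Lx females for each gene under the settings listed, with filled points for an adjusted p under 0.05 and a grey band for the range when 1 library is left out. Aqp4 stays left of 0 in every setting, at -0.08 on the TPM scale. S100b stays left of 0 except on the TPM scale, where it stands at about 0, and Gfap is filled in 2 settings.

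The gene whose level was most like that of Aqp4 over the 28 libraries was ENSRNOG00000006037, with Pearson's r = 0.91 on log2 CPM among 13990 genes averaging 1 CPM or more. That most like Gfap was ENSRNOG00000012561, with r = 0.90. For S100b, Slc1a3 and Slc1a2 the highest r was 0.89, 0.85 and 0.79. The 5 genes themselves were left out of this search, so none of them could be named by it. Of the 13990 genes, 469 were more like Aqp4 than Slc1a2 was, and 6587 were more like it than Gfap was. For Slc1a2, 109 genes were more like it than Aqp4 was, and for S100b 549 were more like it than Gfap was. The r values are across libraries that share strain and scaling and are given as a description.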

How the data were processed

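Whole-brain total RNA was made into stranded libraries after ribosomal RNA removal, per the labels' protocols. Cutadapt and RSEM are named in the submitters' processing notes, with versions, build and annotation not given in the sources used here. Deposited values are the authors' RSEM expected counts per gene (whole for 81.4% of the values of the 5 genes), with the authors' TPM and mean transcript lengths beside them. Depth was 43410562 to 90667237 total expected counts; 92 spike-in rows (1.47% to 6.05% of counts) were left out.

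Expected counts were rounded. Genes were kept with filterByExpr (count minimum 10; 18134 genes), scaled by TMM and fitted over all 28 libraries with edgeR 4.0.16 (quasi-likelihood, robust; R 4.3.3), with terms for 8 groups and the suffix b35 or b37 (19 residual degrees of freedom). Benjamini-Hochberg adjustment ran over all genes, and an adjusted p under 0.05 was a call. Standard errors come from the F statistic and are approximate. Lengths were tested with limma 3.58.1, ratios and correlations by 2-sided permutation tests (100000 resamples; exact within suffixes, which was added after seeing the data). DESeq2 1.42.0 was an alternative. The fits were tested on simulated data. Replicates are labelled biological, and each library was taken as 1 animal.

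The 5 genes and the lists were chosen with earlier results of these data known. The files and reference table do not pair Ensembl identifiers with symbols: the names of the 5 rest on the selection itself, and 8 further lists (other astrocyte genes, other glutamate transporters, water channel genes, neurons, oligodendrocytes, microglia, endothelium, choroid plexus) could not be looked up, nor could the labelled tissue be checked against markers beyond the 5. The rule for named genes took the 5 and, for each, the single most alike other gene; 2 of those identifiers are printed. No row shared its counts with a member. Only Aqp4 had fractional expected counts, in 26 of 28 libraries.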

Additional observations from a re-analysis of the deposited data

Results flagged for a closer look

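Within each group of 4 females the level and mean transcript length of the genes were searched for a library far from the other 3, and 4 of 48 sets of values held one, where chance gives about 1 in 20. Aqp4 stood at 570 CPM in BN-Lx post-estrus replicate 5, against 370 to 394 CPM in the other 3. The mean transcript length of Slc1a3 in that library was 3894 bases, against 3950 bases in each of the others. In BN-Lx pre-estrus replicate 3 it was 3912 bases, against 3949 to 3953. In SHR pre-estrus replicate 12 it was 3941 bases, against 3948 to 3949. BN-Lx post-estrus replicate 5 was also the library least like the rest, with a median correlation of 0.932 with the other libraries, and BN-Lx pre-estrus replicate 3 was the fifth least alike, at 0.957. The part of RNA quality in these values was not tested.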

How the results depend on the processing

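Of the 2 genes called between strains in females, 1 was called with total gene counts (Aqp4), and 0 with the replicate block, with b37 libraries alone or on deposited TPM, where the S100b difference turned to 0.000714. The cause was not tested. With the share covariate, and without the 5 least similar libraries, 2 genes were also called, but these were Gfap and S100b. Aqp4 then had an adjusted p of 0.283 and 0.156 by edgeR. The b35 and the b37 libraries each hold 12 females, and in b35 the flagged replicate 5 alone stands for BN-Lx post-estrus. The count stayed at 2 leaving out any 1 female. For Aqp4 the log2 difference then ran from -0.42 to -0.31 (highest adjusted p 0.0255) and for S100b from -0.33 to -0.25 (0.00752). TPM scaling and leaving out the 3 or 5 least similar libraries were chosen after seeing the data; with 3 left out Aqp4 had an adjusted p of 0.0498. In males limma called 1 gene (S100b, adjusted p = 0.0416) against 0. With b35 libraries alone Aqp4 was called over stages in BN-Lx (1 gene, adjusted p = 0.0321) and for stage by strain (1 gene, 0.0240), with 2887 and 5584 genes called in all, from fewer libraries, 1 of them alone at BN-Lx post-estrus. For mean transcript length, 0 to 1 genes were called leaving out 1 library and 1 (Gfap) without the 3 or the 5 least similar libraries. For the ratios 0 to 1 were called leaving out 1 library: Aqp4 to Slc1a3 without BN-Lx estrus replicate 8 (adjusted p = 0.045) or 9 (0.0007), and Slc1a3 to S100b without SHR estrus replicate 6 (0.0375). With total gene counts 4 correlations passed against 2.

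Over all genes, 1724 were called between strains in females against 3721 with total gene counts, 5967 on TPM, 4574 with the share covariate, 473 with b37 alone and 150 with the replicate block. In males 145 were called against 316 with DESeq2, 745 with limma, 281 with the share covariate, 246 without the 5 least similar libraries, 55 with b35 alone, 52 in a fit of only the libraries compared, 51 with the replicate block and 61 to 74 leaving out 1 male.

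Same-numbered libraries of a strain in different groups had deviations from the group means with r from -0.33 to 0.09 over 8 pairs, none over 0.1. For different numbers r ran from -0.39 to 0.47 over 136 pairs, 51 of them over 0.1. Whether the same number marks a tie between libraries cannot be told from so few pairs. The number used as a block joined same-numbered libraries of both strains, and likeness across strains was not checked. With this block Aqp4 was -0.33 (adjusted p = 0.683), S100b -0.28 (0.719) and Slc1a3 -0.33 (0.194, unadjusted p = 0.00389) by edgeR. Without it Slc1a3 was -0.07. With the block 0 members were called in any comparison. With the number of the sample description as a block, run for sex and stage, 0 members were called. In all, 1, 2 and 1 genes were called for sex in BN-Lx, sex in SHR and sex by strain. No description number occurs in both strains, so the strain difference could not be estimated with that block. With 2 males per strain only large differences could be called there.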
